A study of Homo sapiens with 4 samples.

Results

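MHC class I molecules carry peptides from inside a cell to its surface, where CD8 T cells and natural killer cells read them. The 9 genes described here, HLA-B, HLA-C, HLA-E, B2M, TAP1, TAP2, TAPBP, PSMB8 and PSMB9, encode heavy chains, the light chain, the peptide transporter, its loading factor and 2 subunits of the immunoproteasome. They were taken by symbol, 9 of 23228 genes with counts from ribosome-depleted RNA of A673, a cell line established from an Ewing sarcoma. The choice used no measured value, but earlier results of these data were known when it was made. Every library came from cells transfected with siRNA for 48 h, and each group is 1 library: siRNA against SMPD1 (siSMPD1) with its scrambled-siRNA control (control_SMPD1), and siRNA against GPR64 (siGPR64) with its scrambled-siRNA control (control_GPR64). The controls carry the same treatment label, and the pairs follow the sample titles.

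Peptides are cut from proteins by the proteasome, pumped into the endoplasmic reticulum by the TAP1-TAP2 transporter, and loaded onto a heavy chain paired with B2M while tapasin (TAPBP) holds the complex at the transporter. Interferon is known to raise most of these genes through IRF factors, and NLRC5 is a transactivator of class I promoters. Ewing sarcoma is known for low class I levels at the cell surface. All 9 members but B2M lie on chromosome 6, in or near the MHC region, and B2M lies on chromosome 15. TAP2, PSMB8, TAP1 and PSMB9 are neighbours there, and TAP1 and PSMB9 are read in opposite directions from a shared start region.

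RefSeq promoter windows (GRCh38.p14, from 250 bases before to 50 bases after a gene start) were found for 8 of the 9 members and not for HLA-E. Those of the heavy chains HLA-B and HLA-C, of TAP1 and PSMB8, which spanned 8.29-fold and 13.7-fold over the libraries, and of B2M, which departed from them in siGPR64, are printed 5′ to 3′ on each gene's strand. Capitals mark interferon response elements, searched on both strands in a short form, GAANNGAAA, and a long form, GAAA and GAAA spaced by 2 bases. The forms may overlap. The windows of TAP2, TAPBP and PSMB9 are not printed. PSMB9 spanned 8.62-fold, more than TAP1, and its window held no match to either form. That window does not reach the matches of its neighbour TAP1, at bases 117 to 132 of the TAP1 window. The absence thus holds for the PSMB9 window only, not for the start region shared with TAP1.
HLA-B, chr6:31357130-31357429, minus strand: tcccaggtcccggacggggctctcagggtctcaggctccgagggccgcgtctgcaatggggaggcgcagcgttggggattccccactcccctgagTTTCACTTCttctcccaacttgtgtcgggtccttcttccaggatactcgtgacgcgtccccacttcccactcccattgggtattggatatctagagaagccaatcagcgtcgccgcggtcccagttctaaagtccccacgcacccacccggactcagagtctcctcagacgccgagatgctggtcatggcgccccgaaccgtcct
HLA-C, chr6:31272043-31272342, minus strand: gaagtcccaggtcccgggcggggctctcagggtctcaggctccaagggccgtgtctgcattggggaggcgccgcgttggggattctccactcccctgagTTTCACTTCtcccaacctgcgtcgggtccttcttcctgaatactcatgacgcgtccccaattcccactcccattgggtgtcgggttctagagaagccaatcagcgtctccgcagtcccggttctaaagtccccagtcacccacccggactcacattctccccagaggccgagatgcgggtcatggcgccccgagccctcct
TAP1, chr6:32853655-32853954, minus strand: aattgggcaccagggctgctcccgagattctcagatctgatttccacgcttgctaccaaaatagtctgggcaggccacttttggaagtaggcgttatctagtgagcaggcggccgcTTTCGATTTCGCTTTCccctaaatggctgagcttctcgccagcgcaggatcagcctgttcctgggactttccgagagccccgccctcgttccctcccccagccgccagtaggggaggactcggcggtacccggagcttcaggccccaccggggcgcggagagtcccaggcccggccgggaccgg
PSMB8, chr6:32843998-32844297, minus strand: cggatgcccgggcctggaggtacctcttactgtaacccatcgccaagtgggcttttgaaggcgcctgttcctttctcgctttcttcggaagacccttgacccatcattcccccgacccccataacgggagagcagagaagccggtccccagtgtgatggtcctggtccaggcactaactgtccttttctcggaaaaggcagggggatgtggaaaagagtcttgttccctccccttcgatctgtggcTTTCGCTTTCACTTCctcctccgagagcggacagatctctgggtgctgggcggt
B2M, chr15:44711267-44711566, plus strand: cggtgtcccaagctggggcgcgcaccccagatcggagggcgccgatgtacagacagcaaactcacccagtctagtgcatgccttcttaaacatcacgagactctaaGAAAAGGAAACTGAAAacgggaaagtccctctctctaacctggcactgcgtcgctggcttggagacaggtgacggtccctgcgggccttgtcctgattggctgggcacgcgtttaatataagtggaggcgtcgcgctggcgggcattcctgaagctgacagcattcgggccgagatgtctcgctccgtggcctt

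A match to either form stood in windows of 7 of the 8 members, all but PSMB9, and in 10.6% of 35116 RefSeq windows of the same length. HLA-B, HLA-C and PSMB8 carried the same 9 letters, TTTCACTTC, the short form read on the opposite strand. TAP1, TAP2, TAPBP, PSMB8 and B2M each held 2 matches that overlap. The NF-kB consensus matched in HLA-B, HLA-C, B2M, TAP1 and TAPBP, against 11.3% of all windows. CCAAT, part of the element bound by NF-Y, matched in HLA-B, HLA-C, B2M, TAP1 and PSMB9, against 34.6% of all windows. PSMB8 and TAP1 each have another annotated window, not printed, which held none of these motifs. The TAP1 and PSMB9 windows share 13 bases. The motifs were chosen with these windows in view, and a match is a description of letters, not of binding.

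Gene counts summed to 18849264 in siSMPD1, 19614913 in control_SMPD1, 2534861 in siGPR64 and 2882854 in control_GPR64. One count was worth 0.053, 0.0521, 0.392 and 0.343 CPM (counts per library size, scaled for composition) in the same order, so low genes are far less precise in the GPR64 pair. SMPD1 was 4.52-fold lower in siSMPD1 than in its control and GPR64 2.16-fold lower in siGPR64 than in its control. Between the controls, GPR64 was 3.57-fold lower in control_GPR64 than in control_SMPD1, more than its own knockdown, and it was 1.39-fold higher in siSMPD1 than in control_SMPD1. SMPD1 was also 4.38-fold higher in siGPR64 than in control_GPR64 and 7.85-fold lower in control_GPR64 than in control_SMPD1. Of 10 Ewing sarcoma markers, 9 were above 1 CPM in every library, and CD99 was listed at 0 in all 4. Muscle is the labelled tissue, but MYOD1, MYOG, MYF5 and MYF6, which define that lineage, were listed at 0 in all 4. Of the 9 muscle markers, MYH3 alone was above 1 CPM. It stood at 1.43 CPM in siSMPD1, 2.03 CPM in control_SMPD1, 1.96 CPM in siGPR64 and 1.71 CPM in control_GPR64. The remaining muscle markers, ACTA1, TTN, DES and CKM, had at most 4 counts in any library. Each ratio is of 1 library over 1 other, its 95% interval holds counting error alone, and no difference has a replicate check.

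All 9 members were measured, and most were highest in the SMPD1 pair and lowest in control_GPR64. The order siSMPD1, control_SMPD1, siGPR64, control_GPR64 from high to low held for 6 of the 9 (HLA-B, HLA-C, TAP1, TAP2, PSMB8 and PSMB9). The same order held for 8.78% of the 12887 genes that averaged 1 CPM or more. The library lowest for 8 of the 9 members was control_GPR64, which was lowest for 32.4% of all such genes. Without B2M, the members summed to 748 CPM in siSMPD1, 634 CPM in control_SMPD1, 494 CPM in siGPR64 and 269.9 CPM in control_GPR64. In such bulk libraries, fewer cells of a type and less RNA per cell cannot be told apart.

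**Figure D1:**
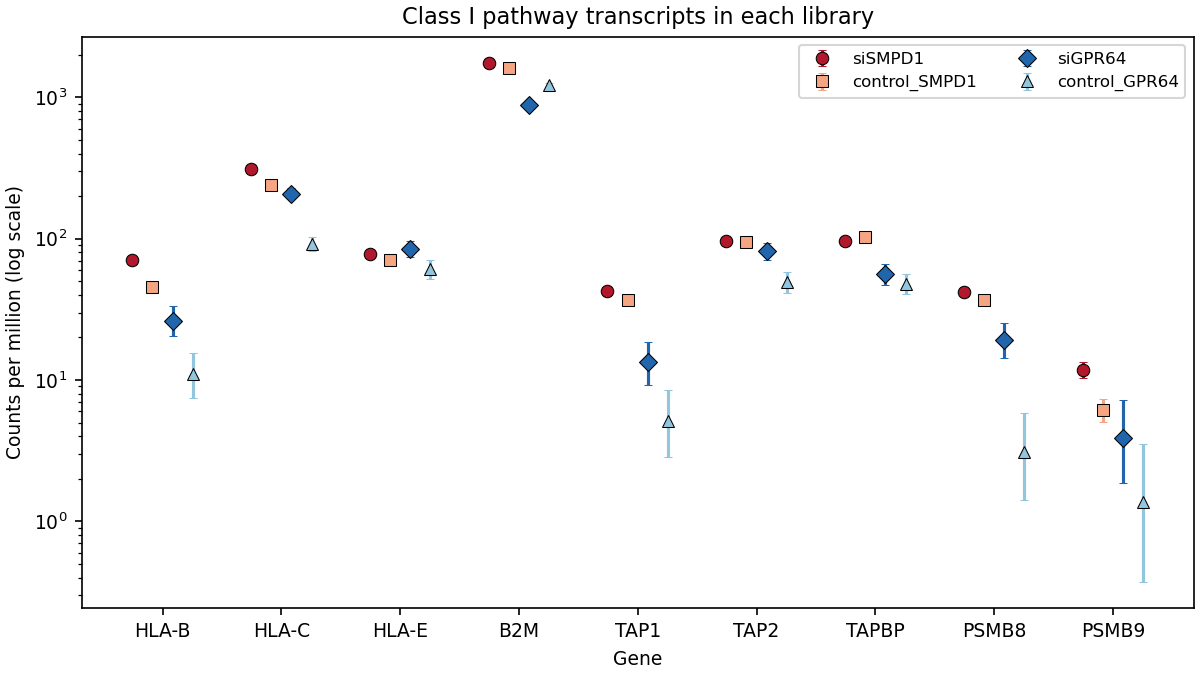
Level of each of the 9 genes in CPM (log scale) in siSMPD1, control_SMPD1, siGPR64 and control_GPR64, 1 library each; bars are exact 95% Poisson intervals of the count. PSMB8 spans 13.7-fold over the libraries and HLA-E 1.4-fold, and control_GPR64 is lowest for every gene but B2M.

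The heavy chains form the peptide groove. HLA-B, a classical heavy chain read by T cells, stood at 70.6 CPM in siSMPD1, 45.3 CPM in control_SMPD1, 26.2 CPM in siGPR64 and 10.96 CPM in control_GPR64. HLA-C, a classical heavy chain and a ligand of killer-cell receptors, stood at 309.7 CPM in siSMPD1, 241 CPM in control_SMPD1, 208 CPM in siGPR64 and 91.8 CPM in control_GPR64. Both were thus higher in each knockdown library than in its own control, and lower in the GPR64 pair than in the SMPD1 pair. HLA-E, which shows signal peptides of other heavy chains to inhibitory receptors of natural killer cells, stood at 78.2 CPM in siSMPD1, 71.1 CPM in control_SMPD1, 84.6 CPM in siGPR64 and 60.6 CPM in control_GPR64. It varied least of the 9, and was highest in siGPR64.

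B2M, beta-2-microglobulin, is the light chain shared by all class I heavy chains. It stood at 1737 CPM in siSMPD1, 1616 CPM in control_SMPD1, 886 CPM in siGPR64 and 1214 CPM in control_GPR64. It was the single member that was lower in siGPR64 than in control_GPR64. Per kilobase of principal transcript it had the highest level of the 9 in every library, between 519.5 and 1019 CPM per kb, with HLA-C next at 59.8 to 202 CPM per kb. For each 100 B2M counts there were 17.8 HLA-C counts in siSMPD1 and 14.9 in control_SMPD1, and 23.5 in siGPR64 and 7.56 in control_GPR64. HLA-E counts per 100 B2M counts were 4.5 in siSMPD1 and 4.4 in control_SMPD1, and 9.55 in siGPR64 and 4.99 in control_GPR64.

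The transporter subunits differed in their spread. TAP1 stood at 42.6 CPM in siSMPD1, 36.6 CPM in control_SMPD1, 13.3 CPM in siGPR64 and 5.14 CPM in control_GPR64, the last on 15 counts. TAP2, its partner, stood at 96.7 CPM in siSMPD1, 94.7 CPM in control_SMPD1, 81.9 CPM in siGPR64 and 48.98 CPM in control_GPR64. For each 100 TAP2 counts there were thus 44.1 TAP1 counts in siSMPD1 and 38.6 in control_SMPD1, but 16.3 in siGPR64 and 10.5 in control_GPR64. TAPBP, which bridges the transporter and the heavy chain, stood at 96.2 CPM in siSMPD1, 102.1 CPM in control_SMPD1, 56.0 CPM in siGPR64 and 47.96 CPM in control_GPR64. It split by pair, with little difference within each.

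The immunoproteasome subunits PSMB8 and PSMB9 take the place of the constitutive catalytic subunits PSMB5 and PSMB6. PSMB8 stood at 42.1 CPM in siSMPD1, 36.96 CPM in control_SMPD1, 19.2 CPM in siGPR64 and 3.08 CPM in control_GPR64, the last on 9 counts. PSMB9 stood at 11.8 CPM in siSMPD1, 6.09 CPM in control_SMPD1, 3.92 CPM in siGPR64 and 1.37 CPM in control_GPR64, the GPR64 pair on 10 counts and 4 counts. Both were lowest in control_GPR64, and their order over the libraries was the same. PSMB5 was between 404 and 482 CPM and PSMB6 between 199 and 227 CPM over the 4 libraries, so the constitutive partners differed by far less.

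PSMB8 counts per 100 PSMB5 counts were 8.74 in siSMPD1 and 7.89 in control_SMPD1, and 4.39 in siGPR64 and 0.763 in control_GPR64. PSMB9 counts per 100 PSMB6 counts were 5.29 in siSMPD1 and 2.68 in control_SMPD1, and 1.97 in siGPR64 and 0.679 in control_GPR64. PSMB10, the third inducible subunit, had 5.22 counts per 100 of its partner PSMB7 in siSMPD1 and 5.17 in control_SMPD1, and 3.54 in siGPR64 and 2.13 in control_GPR64. The spread of PSMB10 over its partner was thus narrower than that of PSMB8 or PSMB9. These ratios are within a library and do not depend on its scaling.

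**Figure D2:**
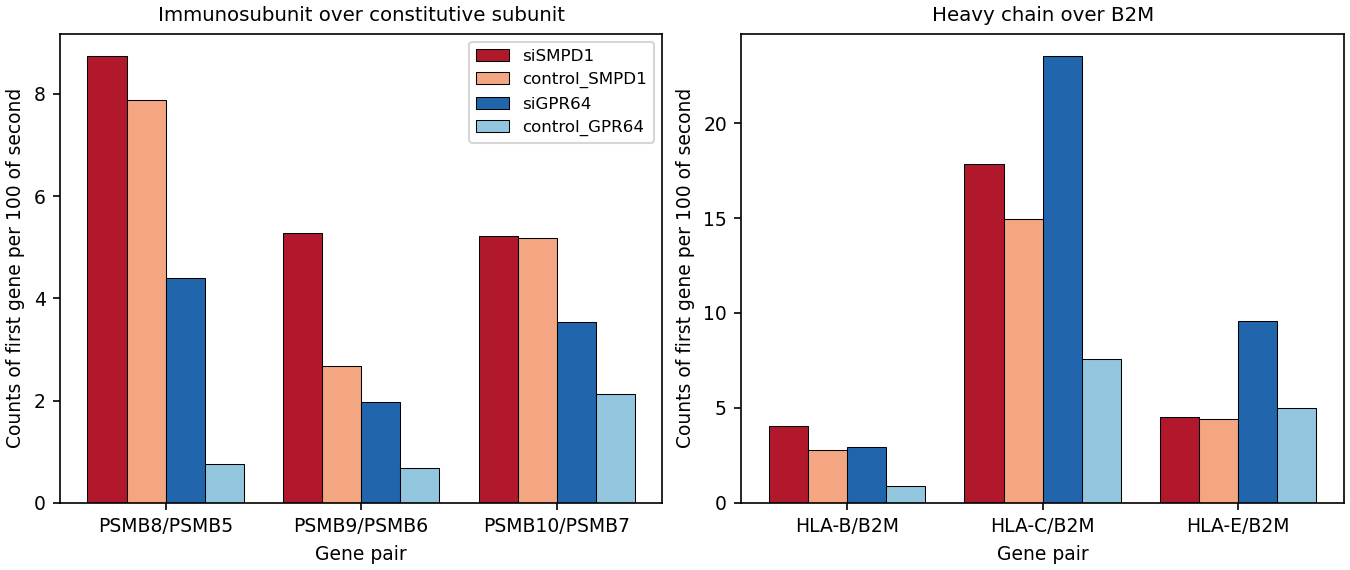
Left, counts of each inducible proteasome subunit per 100 counts of the constitutive subunit it replaces; right, counts of each heavy chain per 100 B2M counts; bars are single libraries, in the order siSMPD1, control_SMPD1, siGPR64, control_GPR64. PSMB8 over PSMB5 is 8.74 in siSMPD1 and 0.763 in control_GPR64, while HLA-C over B2M is highest in siGPR64 at 23.5.

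The first comparison asked which of these transcripts differ when SMPD1, the gene of acid sphingomyelinase, is silenced. The siSMPD1 library stood slightly above control_SMPD1 for most members. A gene was called when its mean was at least 1 CPM, its ratio at least 2-fold and its interval clear of 1. By this rule 0 of 9 members were higher and 0 lower, where 2.49% of 12749 measured genes were higher and 1.11% lower. PSMB9 came nearest, at 1.94-fold higher (95% counting interval 1.54 to 2.45), followed by HLA-B at 1.56-fold (1.43 to 1.7) and HLA-C at 1.28-fold (1.23 to 1.33). TAP1 was 1.16-fold higher (1.05 to 1.29), PSMB8 1.14-fold (1.03 to 1.26), HLA-E 1.1-fold (1.02 to 1.19) and B2M 1.07-fold (1.06 to 1.09). For TAP2 and TAPBP the interval held 1, with log2 ratios of 0.03 and -0.09. The members' median log2 ratio was 0.19, against -0.004 over all measured genes. The ratio was above 1 for 8 of the 9 members and for 49.55% of all measured genes. At 1.5-fold in place of 2-fold, HLA-B and PSMB9 were higher and none was lower, where 7.26% of genes were higher and 4.78% lower.

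The second comparison asked the same for GPR64, an adhesion G protein-coupled receptor. Here 4 of 9 members were higher in siGPR64 by the rule and none lower, where 6.56% of 12830 measured genes were higher and 5.18% lower. PSMB8 was 5.93-fold higher (3.03 to 14.4), TAP1 2.54-fold (1.37 to 5.12), HLA-B 2.37-fold (1.55 to 3.77) and HLA-C 2.27-fold (1.96 to 2.64). PSMB9 was 2.64-fold higher, but on 10 and 4 counts its interval of 0.825 to 12.5 held 1. TAP2 was 1.67-fold higher (1.35 to 2.08) and HLA-E 1.39-fold (1.14 to 1.71), both short of 2-fold. TAPBP had an interval that held 1, and B2M was 1.37-fold lower (1.3 to 1.45). The median log2 ratio was 1.18, against 0.014 over all measured genes. At 1.5-fold, TAP2 joined the 4 higher members and none was lower, where 13.2% of genes were higher and 11.3% lower. Against control_SMPD1, none of the 4 was higher in siGPR64.

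For 7 of the 9 members the scrambled controls differed by a larger ratio than either knockdown and its control did, the exceptions being HLA-E and B2M. No share of all genes was computed for this pattern. Over all measured genes, calls were also most frequent between the controls. In siGPR64 6.56% were higher and 5.18% lower, and in siSMPD1 2.49% and 1.11%. In control_GPR64, 6 of 9 members were lower than in control_SMPD1 and none higher, where 8.33% of 12798 measured genes were lower and 7.02% higher. PSMB8 was 11.8-fold lower (6.28 to 26.3), TAP1 7.07-fold (4.29 to 12.8), PSMB9 4.34-fold (1.69 to 16.6) and HLA-B 4.12-fold (2.9 to 6.08). HLA-C was 2.63-fold lower (2.33 to 2.99) and TAPBP 2.13-fold (1.79 to 2.54). TAP2 was just short of the rule at 1.93-fold lower (1.63 to 2.31), B2M was 1.33-fold lower (1.28 to 1.38) and HLA-E 1.17-fold lower (1.0 to 1.38). The median log2 ratio was -1.39, against -0.013 over all measured genes. At 1.5-fold, TAP2 joined the 6 lower members and none was higher, where 16.6% of genes were lower and 14.6% higher. The GPR64 and SMPD1 pairs also differed in depth and in the share of entries not uniquely aligned, 20.1% and 21.4% against 29.1% and 30.1%, and these cannot be told apart from the change of control.

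**Figure D3:**
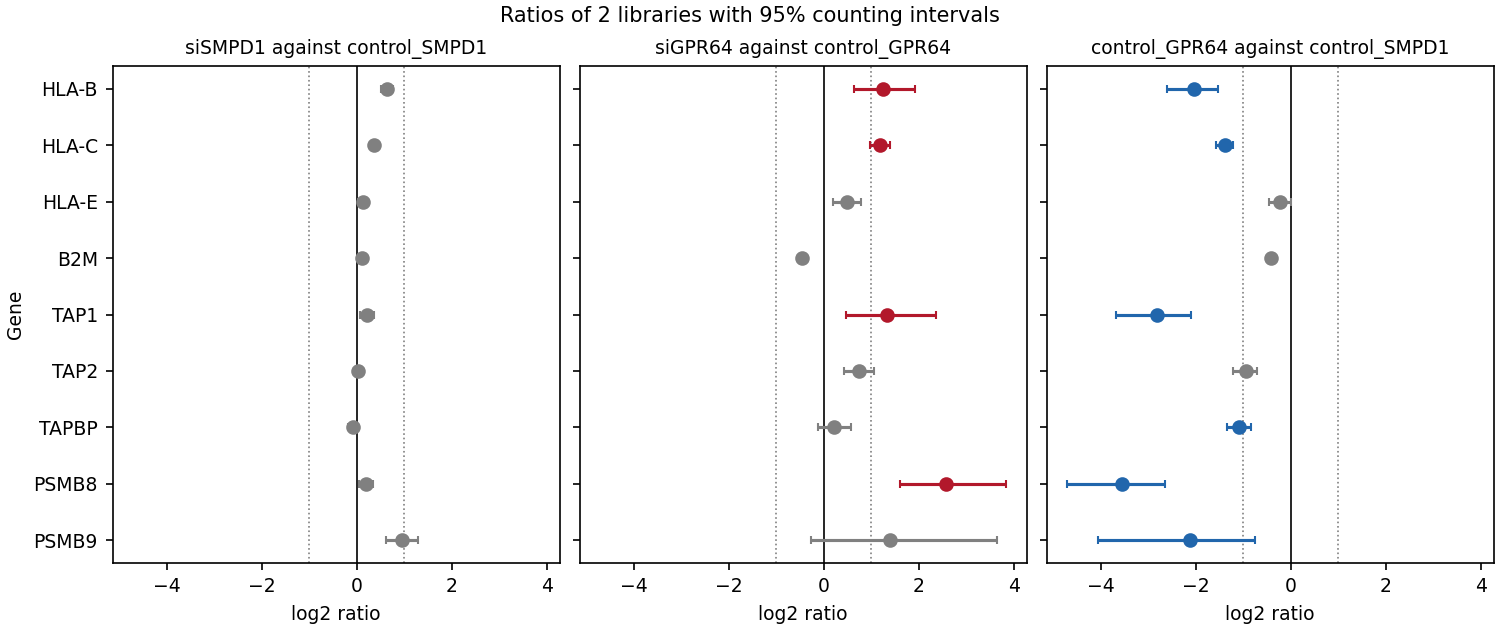
log2 ratio of each gene in siSMPD1 against control_SMPD1, siGPR64 against control_GPR64 and control_GPR64 against control_SMPD1, with 95% counting intervals; dotted lines mark 2-fold, red points are higher and blue points lower by the rule, grey points are not past it. None of 9 is past the rule in the first panel, 4 are higher in the second and 6 lower in the third.

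Because control_GPR64 enters both the second and the third comparison, each knockdown was also set against the other control. Against control_GPR64, siSMPD1 had 6 of 9 members higher and none lower, where 10.5% of 12887 measured genes were higher and 8.02% lower. Against control_SMPD1, siGPR64 had none higher and 1 of 9 lower, TAP1 at 2.74-fold (1.95 to 4.0), where 6.18% of 12812 measured genes were higher and 5.25% lower. The members' median log2 ratio in siGPR64 was 1.18 against its paired control and -0.79 against the other. HLA-B, HLA-C, TAP1, TAP2, TAPBP, PSMB8 and PSMB9 changed sign with the control: HLA-B had log2 ratios of 1.25 and -0.79, and PSMB8 of 2.57 and -0.94. B2M and HLA-E kept theirs, with B2M at -0.45 and -0.87 and HLA-E at 0.48 and 0.25. Of the members that changed sign, PSMB9 had intervals that held 0 against both controls, and TAPBP against control_GPR64. How many of all measured genes changed sign in siGPR64 was not computed. In siSMPD1, TAPBP alone changed sign, with log2 ratios of -0.09 and 1.003, the first with an interval that held 0.

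**Figure D4:**
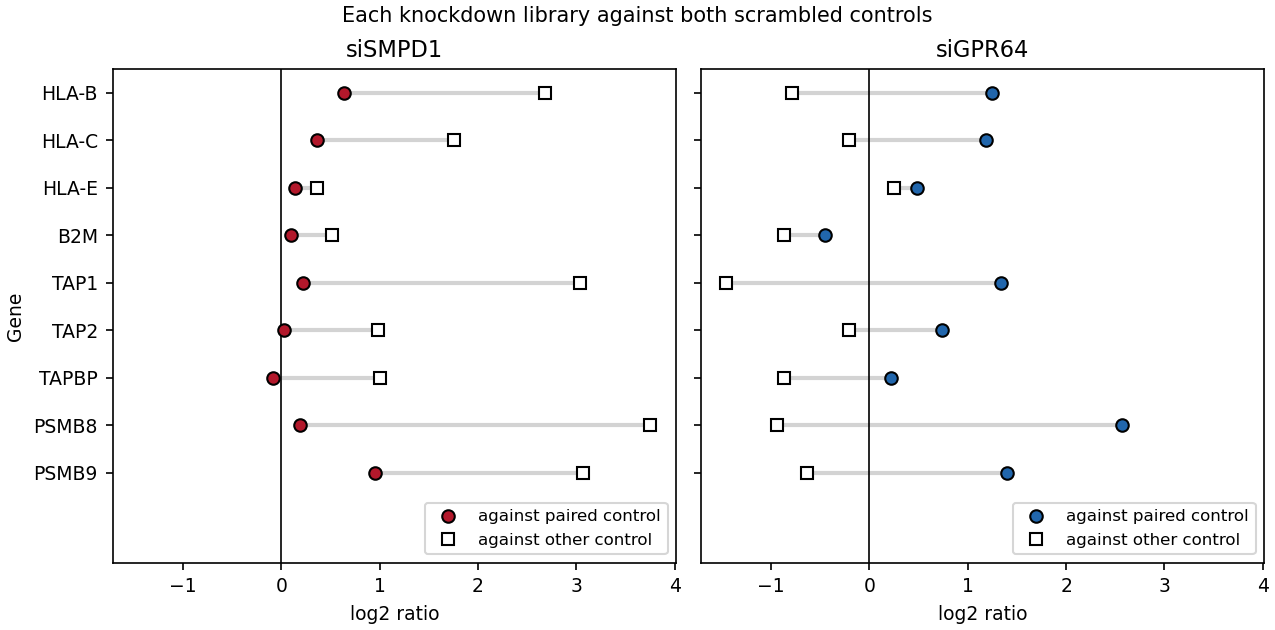
log2 ratio of each gene in siSMPD1 (left) and siGPR64 (right) against the control paired by title (filled circles) and against the other scrambled control (open squares). In siGPR64, 7 of 9 genes lie above 0 against control_GPR64 and below 0 against control_SMPD1. The share of all genes that do so was not computed. Intervals are not drawn: in siGPR64 those of PSMB9 hold 0 against both controls, and that of TAPBP against control_GPR64.

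With both controls taken as replicates of 1 group, edgeR's quasi-likelihood test called 0 of 9 members for either knockdown at an adjusted p under 0.05, and 0 members had an unadjusted p under 0.05. The lowest unadjusted p was 0.111 for siSMPD1 and 0.156 for siGPR64. DESeq2 also called 0 of 9, with lowest unadjusted values of 0.0883 and 0.122. Across 13664 genes edgeR called 0 for either knockdown, with 179 and 313 genes at an unadjusted p under 0.05, and DESeq2 called 1 gene lower in siSMPD1 (0.00732%) and 0 in siGPR64, with 179 and 211 genes at an unadjusted p under 0.05.

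Other genes of the pathway were read from lists of known function. For every list below, the shares of all measured genes past the rule are the background. These were 2.49% higher and 1.11% lower in siSMPD1, and 6.56% higher and 5.18% lower in siGPR64. Between the controls, 7.02% were higher and 8.33% lower in control_GPR64. Among 16 loading and trimming partners, none was past the rule in siSMPD1, 1 was higher in siGPR64 and 3 were lower in control_GPR64 than in control_SMPD1. ERAP1, the aminopeptidase that trims peptides in the endoplasmic reticulum, stood at 168 CPM in siSMPD1, 132.6 CPM in control_SMPD1, 118.7 CPM in siGPR64 and 58.9 CPM in control_GPR64. It was 2.01-fold higher in siGPR64 than in its control (1.67 to 2.44) and 2.25-fold lower in control_GPR64 than in control_SMPD1 (1.93 to 2.64). The chaperone gene CALR and the tapasin-related gene TAPBPL were the other genes of the list lower between the controls, at 2.46-fold (2.34 to 2.59) and 3.51-fold (1.89 to 7.48). In siSMPD1 the list's largest ratios were PDIA3, an oxidoreductase of the loading complex, at 1.83-fold lower (1.75 to 1.9), and CANX, calnexin, at 1.36-fold higher (1.33 to 1.4). The list's median log2 ratios were -0.08 in siSMPD1, 0.36 in siGPR64 and -0.53 between the controls.

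Of 14 proteasome partners, none was past the rule in either knockdown, and PSMB10 alone was lower between the controls, at 2.15-fold (1.37 to 3.59). The list's median log2 ratios were -0.09 in siSMPD1, 0.18 in siGPR64 and -0.17 between the controls. PSMB10 was 1.53-fold higher in siGPR64 (0.834 to 2.9), on 27 and 20 counts. In siSMPD1 the activator gene PSME3 was 1.37-fold lower (1.28 to 1.47), and the intervals of the base subunit gene PSMC1 held 1 in all 3 comparisons. PSMB5, PSMB6 and PSMB7 had log2 ratios between -0.21 and 0.17 in all 3 comparisons.

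Among regulators of class I transcription, NLRC5 stood at 18.1 CPM in siSMPD1, 13.3 CPM in control_SMPD1, 7.84 CPM in siGPR64 and 2.4 CPM in control_GPR64, the last on 7 counts. It was 3.11-fold higher in siGPR64 than in its control (1.33 to 9.15) and 5.47-fold lower in control_GPR64 than in control_SMPD1 (2.66 to 13.96). IRF2, a factor that binds interferon response elements, was 2.54-fold lower between the controls (1.91 to 3.45). NFKB1, a subunit of NF-kB, went the other way, at 3.96-fold higher in control_GPR64 than in control_SMPD1 (3.23 to 4.87). It was 2.1-fold lower in siGPR64 than in its control (1.56 to 2.86). RELA, the other NF-kB subunit of the list, did not share this direction. It stood at 80.3 CPM in control_SMPD1 and 57.2 CPM in control_GPR64, and was 1.42-fold higher in siGPR64 than in its control (1.15 to 1.75).

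The list as a whole had median log2 ratios of -0.10 in siSMPD1, -0.155 in siGPR64 and -0.12 between the controls. Of 31 measured regulators, 0 were past the rule in siSMPD1. In siGPR64 3 were higher and 2 lower, where 6.56% of all measured genes were higher and 5.18% lower. Between the controls 1 of 30 was higher and 2 lower, where 7.02% of all measured genes were higher and 8.33% lower. In siSMPD1 the largest ratios were NFKB1, at 1.65-fold lower (1.34 to 2.03), and SOCS1, whose interval held 1. In siGPR64, besides NLRC5, the feedback inhibitors SOCS3 at 4.02-fold (1.8 to 11.6) and SOCS1, on 13 counts in siGPR64 and 1 count in control_GPR64, were the higher ones. ATF1, a CREB family factor, was the other lower one in siGPR64, besides NFKB1, at 3.11-fold (2.19 to 4.6). NLRC5 in the knockdowns and RELA were named after their values were seen.

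Interferon-stimulated genes were lower as a list between the controls: 15 of 33 measured genes were lower in control_GPR64 than in control_SMPD1 and none higher, with a median log2 ratio of -1.12, where 8.33% of all measured genes were lower. OAS3, an antiviral RNA sensor, was 3.3-fold lower (2.81 to 3.9), and IFIT3, an antiviral effector, 4.75-fold (2.71 to 9.35). IFIT2 was 4.96-fold lower (2.41 to 12.7) and IFITM3 3.04-fold lower (2.39 to 3.94). In siGPR64 the list had 3 higher and 1 lower of 28, with a median of 0.26, where the higher ones were IFIT3, IFITM3 and IRF7 and the lower one was IFIH1, an RNA sensor. In siSMPD1 it had 1 higher and 3 lower of 32, with a median of -0.32, beside the class I members' median of 0.19. GBP2, an interferon-induced GTPase, was 2.87-fold lower there (2.26 to 3.7) and the chemokine genes CXCL10 and CXCL11 2.9-fold (1.75 to 5.16) and 5.03-fold lower (2.45 to 13), CXCL11 on 8 and 43 counts. The higher one was IFITM2, at 2.56-fold (1.56 to 4.46).

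Of 14 other class I and class I-like heavy chains, 0 of 10 measured were higher and 2 lower in siSMPD1, 2 of 10 were higher and 1 lower in siGPR64, and 0 of 11 were higher and 2 lower in control_GPR64 than in control_SMPD1. MICB, a stress ligand of the killer-cell receptor NKG2D, had the largest ratios in siGPR64 and between the controls. The list's median log2 ratios were 0.21 in siSMPD1, 0.08 in siGPR64 and -0.51 between the controls. MICB stood at 42.3 CPM in siSMPD1, 35.8 CPM in control_SMPD1, 29.8 CPM in siGPR64 and 3.77 CPM in control_GPR64. It was 7.58-fold higher in siGPR64 than in its control (4.18 to 16.5) and 9.39-fold lower in control_GPR64 than in control_SMPD1 (5.27 to 19.1). The related MICA was 2.06-fold higher in siGPR64 (1.58 to 2.71), and HFE, a regulator of iron uptake, 2.75-fold lower (1.51 to 5.55). CD1D, which presents lipids, was the other gene lower between the controls, on 3 counts in control_GPR64 and 101 in control_SMPD1, a ratio of 4.94 (1.7 to 25.2). In siSMPD1, the NKG2D ligand genes ULBP1 and ULBP2 were lower, at 2.5-fold (2.12 to 2.96) and 2.83-fold (1.61 to 5.45).

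Of the class II pathway, CIITA, CD74 and HLA-DRA were listed at 0 in all 4 libraries. HLA-DPB1, a class II beta chain, was measured, at 6.84 CPM in siSMPD1, 9.53 CPM in control_SMPD1, 8.23 CPM in siGPR64 and 1.71 CPM in control_GPR64, the last on 5 counts. Of the 14 class II genes, 1 of 5 measured was higher in siSMPD1 (the thiol reductase IFI30, 2.16-fold, 1.37 to 3.55) and 1 of 3 in siGPR64 (HLA-DPB1). Between the controls 2 of 3 were lower, HLA-DPB1 and the protease gene CTSS, the second on 4 counts in control_GPR64. The class II medians were 0.38, 2.03 and -2.14 on the log2 scale in the same order, over 5, 3 and 3 genes. The median in siGPR64 was the ratio of IFI30 alone. It rests on 5 counts in siGPR64 and 1 count in control_GPR64, with an interval of 0.64 to 270 that held 1.

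Of 10 leukocyte markers, 6 or 7 were listed at 0 in each library and CD68 alone was above 1 CPM. CD68 had 12.7 CPM in siSMPD1, 10.2 CPM in control_SMPD1, 7.05 CPM in siGPR64 and 2.74 CPM in control_GPR64, an order shared with 6 of the members. The T-cell, B-cell and myeloid genes CD3E, MS4A1, LYZ and TYROBP were at 0 in all 4, and PTPRC, which marks leukocytes, was at 0 in the GPR64 pair. PTPRC had 2 counts in siSMPD1 and 3 in control_SMPD1. The myeloid genes CD14 and ITGAM had between 1 and 11 counts in every library. Of 5 epithelial markers KRT8 and KRT18 were measured, and the list summed to 148 CPM in siSMPD1, 180.5 CPM in control_SMPD1, 169 CPM in siGPR64 and 85.3 CPM in control_GPR64. The 8 endothelial and fibroblast markers summed to 28.5 CPM in siSMPD1, 27.1 CPM in control_SMPD1, 80.3 CPM in siGPR64 and 39.05 CPM in control_GPR64. Most of each sum was COL1A1, at 25.1, 23.0, 75.2 and 34.3 CPM in that order. DCN went the other way from COL1A1 in the GPR64 pair, on 2 counts in siGPR64 and 12 in control_GPR64. The part of the epithelial and CD68 differences in the members' ratios was not tested.

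Genes that lie near the members on chromosome 6 had list medians near 0. Of 42 measured neighbours in the MHC region, 0 were past the rule in siSMPD1, 2 were higher and 2 lower in siGPR64, and 1 was higher and 1 lower in control_GPR64 than in control_SMPD1. Their median log2 ratios were 0.03, -0.07 and -0.08. In siGPR64 the higher ones were TNXB, at 2.61-fold (1.13 to 7.17), and B3GALT4, at 3.15-fold (1.04 to 14.6), which were also the largest in siSMPD1, at 1.94-fold and 1.88-fold. The lower ones were IER3, at 2.86-fold (2.05 to 4.11), and HSD17B8, at 3.0-fold (1.45 to 7.41). The proliferation-linked gene TCF19 was the lower one between the controls, at 2.22-fold (1.81 to 2.74), and the immediate-early response gene IER3 the higher one, at 2.32-fold (1.91 to 2.81). Of the list on surface turnover and ligands of inhibitory receptors, 1 of 13 was lower in siSMPD1, 1 of 12 in siGPR64 and 2 of 13 between the controls, with none higher, and median log2 ratios were 0.05, 0.055 and -0.34. The autophagy receptor gene NBR1 was the one lower in siGPR64, at 3.02-fold (2.39 to 3.87). MARCH4, a ubiquitin ligase gene, was 2.15-fold lower in siSMPD1 (1.31 to 3.73) and, at 0 counts in control_GPR64, at least 2.58-fold lower there than in control_SMPD1 (bound at 3 counts). TMEM127 was the other one lower between the controls, at 2.52-fold (2.02 to 3.18).

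**Figure D5:**
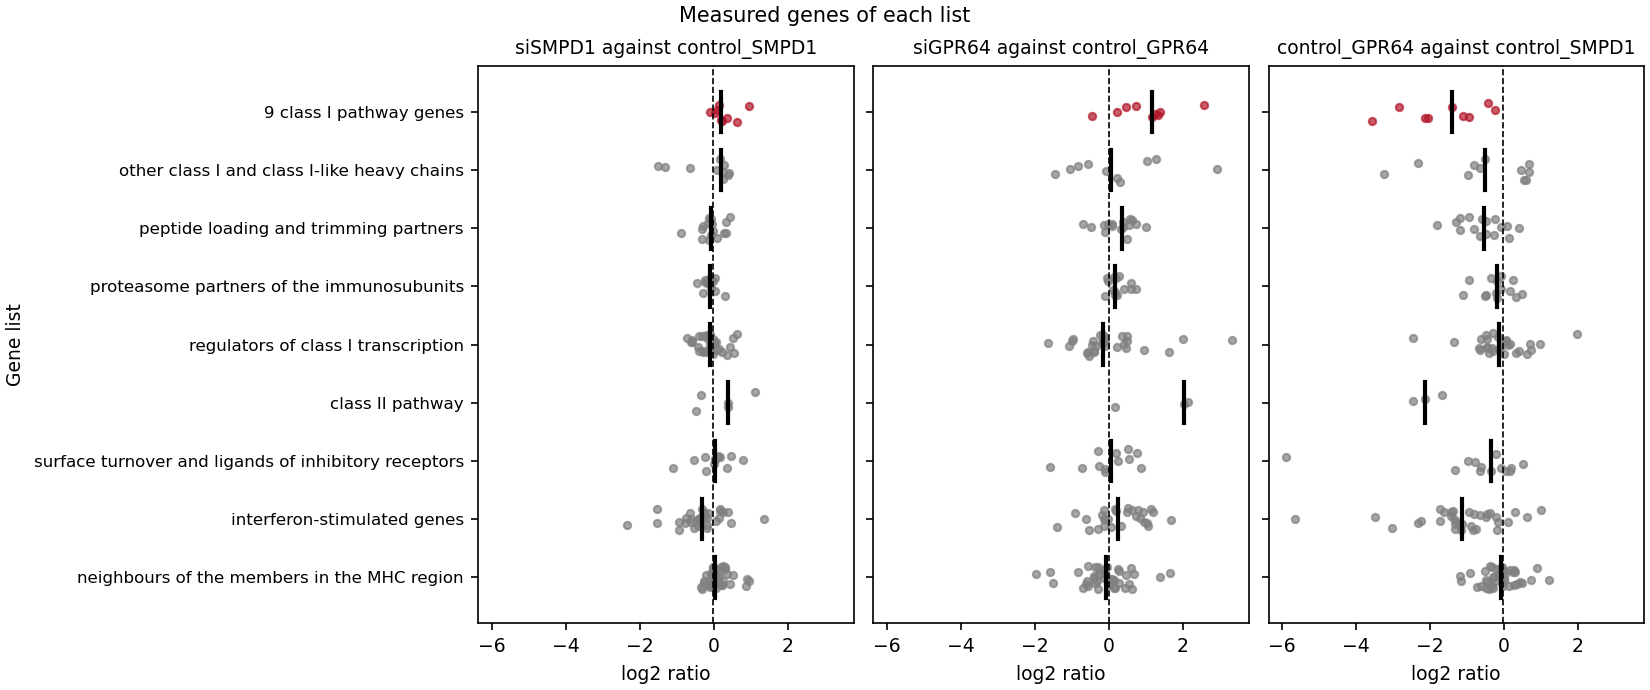
log2 ratio of every measured gene of each list (points, spread vertically for visibility) in the 3 comparisons; black bars are list medians and the dashed line is the median of all measured genes, and ratios of genes at 0 counts are fitted values, not bounds. The class I members have medians of 0.19, 1.18 and -1.39, and MHC-region neighbours of 0.03, -0.07 and -0.08.

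The genes whose profile over the 4 libraries lay closest to the members' mean profile, by Euclidean distance of centred log2 CPM among 9797 genes, were BTN3A3, PHF11, CUX2, PPARGC1B and INSIG1. BTN3A3, a butyrophilin, stood at 20.1 CPM in siSMPD1, 15.7 CPM in control_SMPD1, 10.97 CPM in siGPR64 and 5.48 CPM in control_GPR64, at a distance of 0.0967. PHF11, CUX2, PPARGC1B and INSIG1 lay between 0.113 and 0.138. Of the members themselves, HLA-C lay nearest their mean at 0.307, and PSMB8 at 1.49, HLA-E at 1.22 and B2M at 1.12 lay furthest. With 4 libraries such closeness describes these profiles only.

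Counting could touch some members more than others. In GENCODE 29 transcripts (GRCh38), 2.12% of the 50-base windows of HLA-B, 6.17% of HLA-C and 5.13% of HLA-E also occurred in another gene, against none for B2M and PSMB8. For TAP2 the share was 32.7%, all of it shared with an annotated gene on the same strand that the files do not list. For PSMB9 it was 9.94%, shared with PSMB8-AS1. PSMB8-AS1, on the opposite strand of PSMB8 and TAP1, is not listed in the files either, so its reads and theirs cannot be told apart where no strand setting is given. PSMB8 and PSMB9 share 139 exon bases on opposite strands. Heavy chain genes vary between people, and how the cell line's alleles align to the reference was not tested. All 4 libraries are labelled as the same cell line.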

How the data were processed

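Total RNA of A673 cells was sequenced as paired ends after ribosomal RNA depletion, per the labels' protocols. Per the submitters' processing notes, the tools were HTSeq, TopHat2, SAMtools and bcl2fastq and the build hg19. The sources used here give no versions, annotation, strand setting or counting mode. In the deposited files each gene symbol has its raw count, with no normalization by the authors. The 5 HTSeq summary lines, 36.5% to 44.8% of entries, were left out.

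Counts were scaled with TMM factors (edgeR 4.0.16, R 4.3.3) over genes that reach 1 CPM in any library. Log2 ratios used a prior of 0.5 count, with exact 95% intervals by the Clopper-Pearson method. Such intervals cover counting error only, since reads without molecular identifiers need not be independent molecules. With 1 library per group there is no test between groups, so genes were called by a rule of size, over all genes: a mean of at least 1 CPM, a ratio of at least 2-fold and an interval clear of 1. A fold against 0 counts was set against 3 counts in that library and is a bound. DESeq2 1.42.0 and the quasi-likelihood test of edgeR took both controls as 1 group, which leaves 1 residual degree of freedom.

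The members and lists were chosen with earlier results of these data known. Genes named are all members, the targets, up to 4 genes per list and comparison past the rule (otherwise 2 by size), PSMB5 to PSMB7 and the 5 closest profiles. List medians and counts carry no test. Transcript lengths are of GENCODE 29 principal transcripts and promoter windows are from RefSeq, matched by symbol; neither build is that of the files.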

Additional observations from a re-analysis of the deposited data

How the results depend on the processing

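No paired analysis was possible because each pair holds a different knockdown, so a fit with the pair as a block leaves no residual degree of freedom for either one. No replicate can be left out. Scaling by DESeq2 size factors or library totals, a prior count of 2 and no filter on low counts changed no call and no direction of a member in the 3 comparisons. At 1.5-fold, 2 of 9 members were higher in siSMPD1 (background 7.26%). At a mean of at least 10 CPM, 3 members were higher in siGPR64, with a median log2 ratio of 0.74 over 7 members. TAP1 and PSMB9 were no longer measured there. Between the controls 5 were lower, where PSMB9 was no longer measured. The shares of all genes called at this level were not computed.

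The choice of control moved the calls most. Against control_GPR64, siSMPD1 had 6 members higher, a median of 1.75 and TAPBP at a log2 ratio of 1.003. Against control_SMPD1, siGPR64 had 0 members higher and 1 lower, a median of -0.79, and log2 ratios of -0.79 for HLA-B, -0.21 for HLA-C, -1.46 for TAP1, -0.21 for TAP2, -0.86 for TAPBP, -0.94 for PSMB8 and -0.63 for PSMB9. With both controls as replicates, edgeR and DESeq2 called 0 members higher for either knockdown. In siSMPD1, edgeR gave a median of 0.886 and DESeq2 of 0.885, and both gave TAPBP a log2 ratio of 0.34. In siGPR64, edgeR gave a median of -0.13, HLA-B -0.14, TAP1 -0.70, TAPBP -0.43, PSMB8 -0.13 and PSMB9 -0.043. DESeq2 gave a median of -0.086, HLA-B -0.12, TAP1 -0.67, TAPBP -0.43, PSMB8 -0.086 and PSMB9 0.007. HLA-C, HLA-E and TAP2 stayed above 0 with both tools, at 0.31, 0.36 and 0.18 with edgeR. B2M stayed below 0 with both, at -0.68 with edgeR. The cause of the difference between the controls was not tested. In the GPR64 pair, PSMB8, PSMB9 and TAP1 rest on 4 to 49 counts, which limits their ratios.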
